A study of Homo sapiens and Mus musculus with 15 samples.

Results

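Natural killer (NK) cells of the mouse retinal pigment epithelium (RPE) and choroid numbered 99 among 30865 filtered cells, 64 of 15198 at 24 months and 35 of 15667 at 3 months. They were chosen by transcripts: at least 1 unique molecular identifier (UMI, a count of 1 captured RNA molecule) of Nkg7, at least 1 UMI of Ncr1 or Klrb1c, no UMI of Cd3d, Cd3e, Cd3g, Cd8a or Cd8b1, at most 2 UMIs of the macrophage complement genes C1qa, C1qb and C1qc, and under 4% of UMIs from the RPE genes Mitf, Rlbp1, Rpe65, Trpm3, Ttr and Tyr. Levels of these genes chose the cells and are given as description. The single-cell RNA sequencing of the study set RPE preparations of old mice against those of young mice to profile natural aging. There was 1 library of 24-month-old and 1 library of 3-month-old C57BL/6J mice, dissociated with papain and run on the 10x 5′ v2 kit, with no agent or allele added in either. Titles and ages separate the libraries, but the condition label of the 3-month library also reads old, so its age rests on the title and age labels. The labels call the cells RPE, yet immune cells, fibroblasts and vessel cells of the choroid came with them, and the number of mice behind each library is not given in the sources used here.

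NK cells are innate lymphocytes that kill infected, stressed or transformed cells without prior sensitization. Granzymes and perforin are released from their granules, and the balance between activating receptors and inhibitory receptors that read MHC class I on the target sets whether they fire. They share Ncr1 (NKp46) and Klrb1c (NK1.1) with group 1 innate lymphoid cells (ILC1), which reside in tissues, need less Eomes than circulating NK cells and are known in other organs for Cxcr6, Itga1 and Il7r. A gate on Ncr1 or Klrb1c therefore takes in both kinds.

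With 1 library for each age no difference between ages could be tested, and cells are not replicates of an age. Levels are given as CPM, the UMIs of a gene summed over the NK cells of a library per 1000000 UMIs of these cells. Intervals in parentheses are exact 95% intervals that cover counting error only, and ratios are 24 months over 3 months on the log2 scale unless stated. In total, 215447 UMIs from NK cells at 24 months and 177270 at 3 months carried the levels. NK cells had a median of 3157.5 UMIs (791 to 8974) and 1486.5 genes at 24 months, against 4079 UMIs (1855 to 16245) and 1928 genes at 3 months. Of the filtered barcodes, 300 occurred in both libraries, with 1 NK cell of each library among them and no barcode that was an NK cell in both.

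Most NK cells lay inside the limits on Nkg7, Ncr1 and Klrb1c by more than 1 UMI. A single Nkg7 UMI was the basis for 2 of 64 NK cells at 24 months and 1 of 35 at 3 months, and a single UMI of Ncr1 and Klrb1c together for 11 and 2 cells of these libraries. Just outside the gate, 2 cells at 24 months and 2 cells at 3 months met every other term but held 1 UMI of a Cd3 or Cd8 gene, and a further 18 and 8 held at least 2. Cells with Nkg7 but no UMI of Ncr1 or Klrb1c that met all other terms numbered 44 at 24 months and 15 at 3 months, with a Gzma UMI in 2 and 0 of them. Among the NK cells, 18 of 64 at 24 months and 4 of 35 at 3 months held 1 or 2 C1q UMIs. The limits on C1q and RPE genes alone kept out 6 cells at 24 months, with a median of 15516 UMIs, and 0 cells at 3 months. Ncr1 and Klrb1c were detected together in 36 of 64 and 25 of 35 NK cells.

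The label was checked against markers that the rule did not use. The check does not settle NK cells against ILC1, and NK cells here means all cells of the gate. Il2rb, a receptor chain for IL-2 and IL-15 on which NK cells depend, was at 1016 CPM at 24 months and 1021 CPM at 3 months, with a UMI in 95.3% and 94.3% of NK cells. Fcer1g, a signalling adaptor, was at 2646 and 2454 CPM, and Tyrobp (DAP12), the partner of activating NK receptors, at 2321 and 1811 CPM. All 3 were above CD8 T cells of the same library, in which Il2rb was at 283 CPM at 24 months and 227 CPM at 3 months, and Fcer1g at 66.0 and 26.1 CPM. Of 16 NK markers outside the rule, all were detected and 15 had at least 20 UMIs over both libraries. Eomes, of which ILC1 need less, had a UMI in 22 of 64 NK cells at 24 months and 23 of 35 at 3 months. Itga2 had 5 UMIs at 24 months and 4 at 3 months. B cell genes Cd79a, Cd79b and Ms4a1 had 0 UMIs in NK cells of both libraries, as had the T cell genes Cd4, Cd5 and Cd6 and the ILC2 and ILC3 genes Il1rl1, Il13, Il5, Il23r, Il22 and Il17a. Trac had 1 UMI at 24 months and 0 at 3 months. The T cell receptor beta constant genes Trbc1 and Trbc2, which NK cells can transcribe without a rearranged receptor, had 9 and 8 UMIs at 24 months and 10 and 7 UMIs at 3 months.

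NK cells made up 0.421% of filtered cells at 24 months (0.324 to 0.537) and 0.223% at 3 months (0.156 to 0.311), a ratio of 1.89 (1.23 to 2.93). The direction turned with the denominator. Among cells with a UMI of Ptprc (CD45, the pan-leukocyte gene), NK cells were 55 of 1953 (2.82%) at 24 months and 32 of 550 (5.82%) at 3 months, a ratio of 0.484 (0.308 to 0.773). There were 64 NK cells beside 1258 T cells at 24 months and 35 beside 58 at 3 months. CD8 T cells, defined by a UMI of a Cd3 gene and of Cd8a or Cd8b1 with no Ncr1 or Klrb1c, with the same limits on C1q and RPE genes, numbered 844 at 24 months and 23 at 3 months. RPE cells were 5419 of 15198 filtered cells at 24 months and 1886 of 15667 at 3 months, and the part of this difference in the NK share was not tested.

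NK cells with and without Gzma differed in many other genes, and they stood in different proportions in the libraries. Gzma encodes granzyme A, a granule protease, and was no term of the rule. A Gzma UMI was found in 24 of 64 NK cells (37.5%, 25.7 to 50.5) at 24 months and in 24 of 35 (68.6%, 50.7 to 83.1) at 3 months. In B cells, which should lack it, it was found in 2 of 77 cells at 24 months (median 2202 UMIs) and 0 of 48 at 3 months (median 2808 UMIs). Few cells lay near the cut: 2 NK cells at 24 months had 1 Gzma UMI and 2 had 2 UMIs, whereas 17 had at least 10, and at 3 months all 24 positive cells had at least 10. The median Gzma level within positive cells was 12083 CPM at 24 months and 11325 CPM at 3 months. With every cell thinned to 1000 UMIs, which left out 1 NK cell at 24 months and 0 at 3 months, the shares were 31.7% and 68.6%. Gzma-negative cells were the deeper ones in both libraries. The median was 2540.5 UMIs in positive and 3446 in negative cells at 24 months, and 3115.5 and 4887 UMIs at 3 months. The 11 negative cells at 3 months held 72590 UMIs, of which 2 deep cells held 13920 and 13588. CPM of this set, and age ratios within it, therefore lean on those 2 cells. The 24 positive cells at 3 months held 104680 UMIs, of which the 2 deepest held 16245 and 8067. CPM of the positive set at 3 months, and age ratios within it, lean in part on these cells as well.

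Counted against all filtered cells, Gzma-positive NK cells were level between the ages and Gzma-negative NK cells were not. Positive cells were 24 at 24 months (0.158%, 0.101 to 0.235) and 24 at 3 months (0.153%, 0.0982 to 0.228), a ratio of 1.03 (0.561 to 1.90). Negative cells were 40 at 24 months (0.263%, 0.188 to 0.358) and 11 at 3 months (0.0702%, 0.0351 to 0.126), a ratio of 3.75 (1.89 to 8.10). As for all NK cells, this depended on the denominator. Among cells with a Ptprc UMI, positive cells were 22 of 1953 at 24 months and 22 of 550 at 3 months, a ratio of 0.282 (0.149 to 0.533), and negative cells were 33 and 10 (1.69% and 1.82%), a ratio of 0.929 (0.447 to 2.11). Against leukocytes it was thus the Gzma-negative cells that stood near level and the Gzma-positive cells that were the lower at 24 months. A cut at 3 Gzma UMIs gave 20 and 24 positive and 44 and 11 negative cells at 24 and 3 months, and a split by Eomes in place of Gzma gave 22 and 23 positive and 42 and 12 negative cells. This split was chosen after the values had been seen and was not tested.

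**Figure D1:**
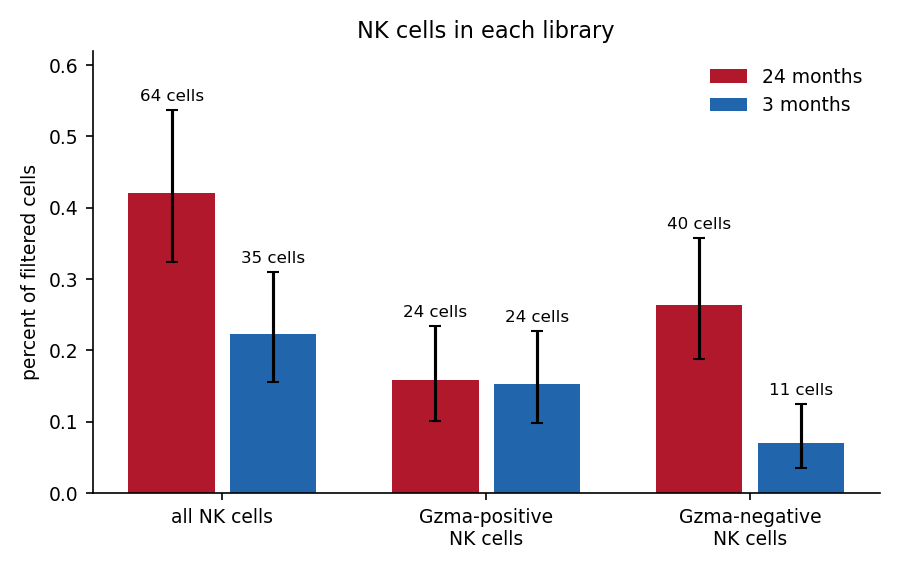
Percent of filtered cells (y axis, from 0) that were NK cells, Gzma-positive NK cells and Gzma-negative NK cells at 24 months (red) and 3 months (blue); bars are shares, whiskers exact 95% binomial intervals for counting error, and numbers the cells. Gzma-positive cells were 24 in each library, while Gzma-negative cells were 40 at 24 months and 11 at 3 months.

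Gzma-positive cells held more of the late maturation and Ly49 receptor genes and of part of the granule genes. They held less of the genes of ILC1 and tissue residence. In both libraries CPM was higher in positive cells for 8 of 8 genes of late maturation and 6 of 6 Ly49 receptor genes. It was lower in positive cells for 11 of 11 genes of ILC1 and tissue residence. Of 9 genes of early maturation, 7 were lower in positive cells in both libraries and 1 was higher. Of 10 granule genes other than Gzma, 6 were higher in positive cells in both libraries (Gzmb, Prf1, Fasl, Ctsc, Serpinb9 and Serpinb6b). A further 2 were lower (Gzmc and Ctsw) and 2 differed in direction. The share of all genes that were higher, or lower, in positive cells in both libraries was not computed, so these counts describe the lists alone. Prf1 (perforin, the pore through which granzymes enter the target) was in 20 of 24 positive and 16 of 40 negative cells at 24 months, at 1178 and 138 CPM, a log2 ratio of positive over negative of 3.09 (2.38 to 3.86). At 3 months it was at 994 and 82.7 CPM, a log2 ratio of 3.59 (2.42 to 5.07). Eomes, a T-box factor that marks NK cells, was in 13 of 24 positive and 9 of 40 negative cells at 24 months and in 21 of 24 and 2 of 11 at 3 months. Its CPM in positive cells was 330 at 24 months and 439 at 3 months, with a log2 ratio between the ages of -0.41 (-1.23 to 0.36). Cma1, a protease gene of the chymase family, was in 15 of 24 positive and 1 of 40 negative cells at 24 months and in 14 of 24 and 0 of 11 at 3 months. Klrg1, an inhibitory receptor of terminally mature NK cells, and S1pr5, a sphingosine phosphate receptor used by NK cells to leave tissues, had UMIs in positive cells alone: Klrg1 in 11 and 13 cells at 24 and 3 months, S1pr5 in 6 and 11. A count of 0 in the 40 and 11 negative cells allows a share of cells with a UMI of up to 7.5% at 24 months and 27.3% at 3 months, and does not limit the share that express these genes below detection.

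Gzma-negative cells carried Xcl1, Cd7, Ly6e and, in part, Cxcr6 and Gzmc. Xcl1, a chemokine that attracts cross-presenting dendritic cells, was in 9 of 24 positive and 37 of 40 negative cells at 24 months, at 440 and 1963 CPM. At 3 months it was in 6 of 24 and 11 of 11, at 277 and 2149 CPM. Cd7, an immunoglobulin-family surface protein of lymphocytes, was at 204 and 1739 CPM in positive and negative cells at 24 months and 134 and 1047 CPM at 3 months. Cxcr6, the receptor that retains lymphocytes in tissues such as liver, had no UMI in 24 positive cells of either library, which allows a share of cells with a UMI, though not of cells expressing it, of up to 12.5% in each. It was in 15 of 40 negative cells at 24 months and 10 of 11 at 3 months, at 211 and 675 CPM, a log2 ratio of -1.68 (-2.37 to -1.01). Inpp4b (a phosphoinositide phosphatase) was likewise at 0 UMIs in positive cells and at 415 CPM at 24 months and 427 CPM at 3 months in negative cells. Itga1 was in 2 of 24 positive and 11 of 40 negative cells at 24 months. At 3 months it was in 0 of 24 and 4 of 11. Il7r was in 2 of 24 positive and 10 of 40 negative cells at 24 months, and in 0 of 24 and 2 of 11 at 3 months. Tbx21 (T-bet), which NK cells and ILC1 share, did not separate the kinds: 298 and 237 CPM in positive and negative cells at 24 months, 306 and 358 CPM at 3 months.

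Gzmc was detected in Gzma-negative cells alone. This relative of granzyme B is known in mice from activated killer cells and from tissue ILC1. It had 0 UMIs in 24 Gzma-positive cells of each library, against 2260 CPM in negative cells at 24 months (25 of 40 cells) and 1708 CPM at 3 months (6 of 11 cells). Over all NK cells this gave 1592 CPM at 24 months and 699 CPM at 3 months, a log2 ratio of 1.19 (0.89 to 1.49). A single cell held 68.5% of the 124 Gzmc UMIs at 3 months, and with the leading cell of each library left out the log2 ratio was 2.59. Without the cells that held a T cell receptor constant UMI it was 0.02, so the size of the Gzmc difference rests on few cells. In CD8 T cells Gzmc was at 0.332 CPM at 24 months and had 0 UMIs at 3 months, where 3 UMIs would be 26.1 CPM. The neighbouring family members Gzmd, Gzme, Gzmf and Gzmg had 0 UMIs in NK cells of both libraries. Gzmb was present in both kinds, in 20 of 24 positive and 20 of 40 negative cells at 24 months. At 3 months it was in 20 of 24 positive and 6 of 11 negative cells.

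**Figure D2:**
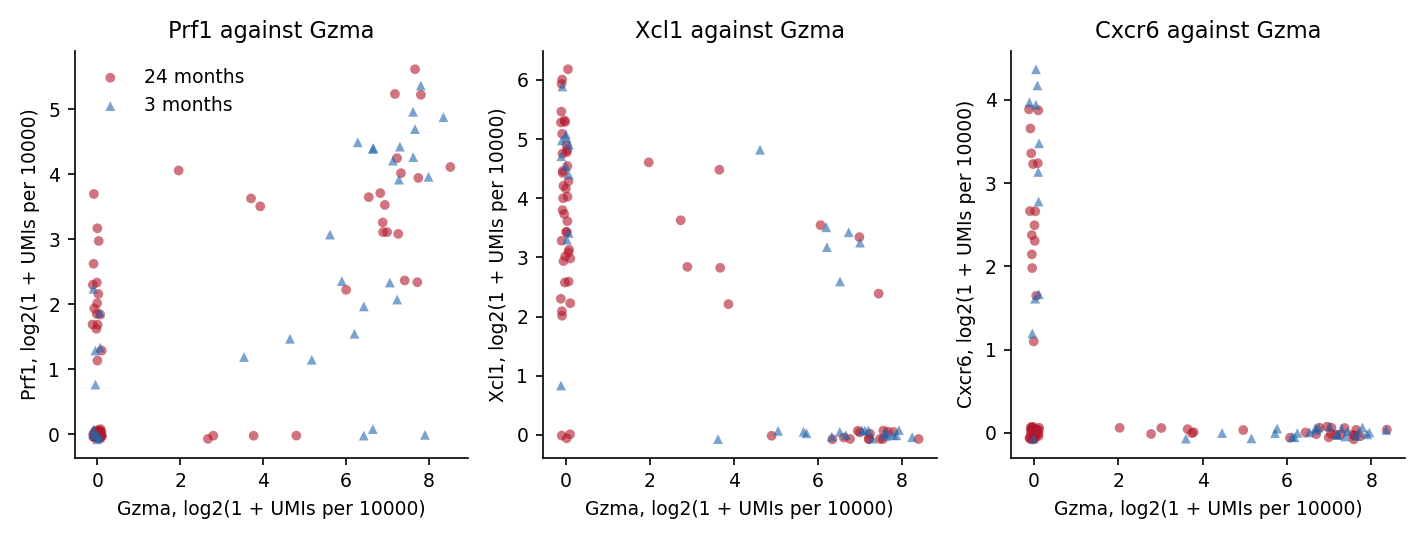
Each point is 1 NK cell at 24 months (red circles) or 3 months (blue triangles); both axes are log2(1 + UMIs per 10000 UMIs of the cell), slightly jittered, with Gzma on the x axis and Prf1, Xcl1 or Cxcr6 on the y axis. Cells with Gzma held no Cxcr6 in either library (0 of 24 in each), whereas Xcl1 was in 37 of 40 and 11 of 11 cells without Gzma.

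Over the 99 NK cells, the genes most like Gzma by Pearson correlation of log-normalized values were Irf8 (0.80), Lgals1 (0.75), Ccl5 (0.75), Prf1 (0.69) and Klrg1 (0.69). Irf8 is an interferon regulatory factor used by NK cells in antiviral responses, Lgals1 encodes galectin-1 and Ccl5 is the chemokine RANTES. The most opposite were Ly6e (-0.80), Cd7 (-0.75), Xcl1 (-0.73), Inpp4b (-0.66) and Tmem176b (-0.64). The cells share a library and differ in depth, so these values describe the cells and carry no test. Within each library Irf8 gave 0.77 at 24 months and 0.85 at 3 months, and Ly6e -0.81 and -0.77.

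**Figure D3:**
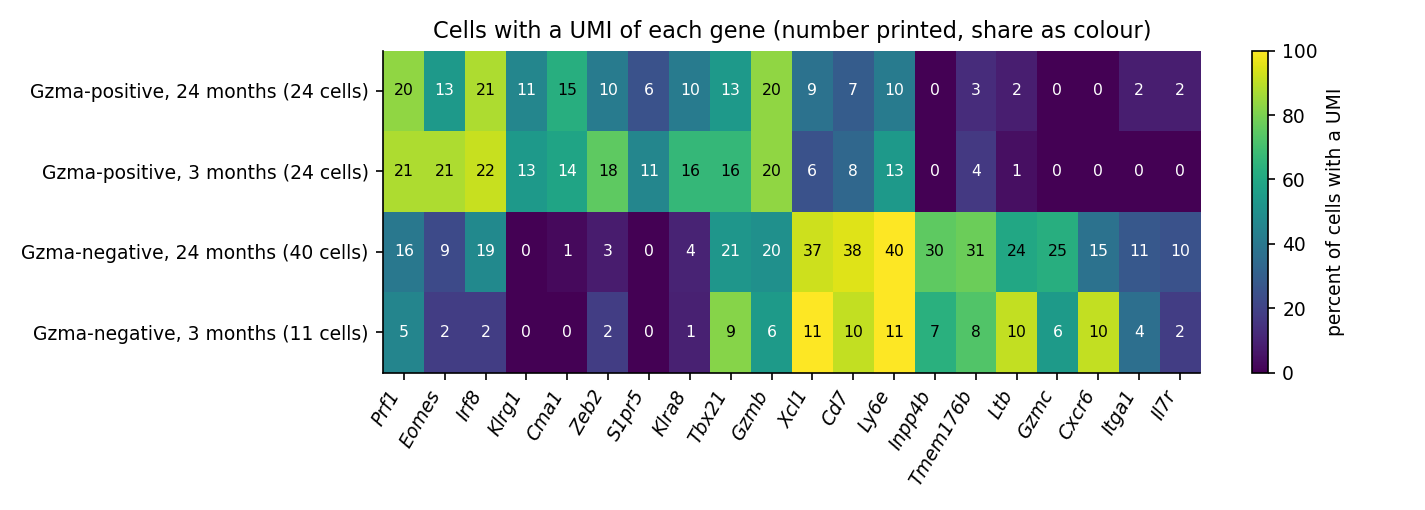
Numbers are NK cells with at least 1 UMI of each gene (columns) in Gzma-positive and Gzma-negative cells of each library (rows), and colour is the percent of cells in that row. Klrg1 and S1pr5 had cells in the Gzma-positive rows alone (11 and 13, 6 and 11 cells), and Gzmc, Cxcr6 and Inpp4b in the Gzma-negative rows alone.

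Age ratios of single genes over all NK cells hold both the balance of these cells and differences within each set, so values within the sets are given beside them for some genes. Other genes that differed between the sets in both libraries are given over all NK cells alone. Among these are Il12rb2, Spn, Klri2, Klrc1, Cd247, Tnfaip3, Tmem176b, Ly6a and Fos, and their ratios also hold the balance of the sets. Across all genes with at least 20 UMIs in NK cells of both libraries together, 160 of 3351 (4.77%) were at least 2-fold higher at 24 months and 209 (6.24%) at least 2-fold lower, with a median log2 ratio of -0.05. Counts below for gene lists are of members with at least 20 UMIs, and those past 2-fold are read against these shares. The share of all genes above 0 was not computed, so counts by sign alone describe the lists. List medians close to 0 changed sign with the alternatives run, among them those of granule genes (-0.33 to 0.21), activating receptors (-0.40 to 0.25), interferon-stimulated genes (-0.42 to 0.80) and MHC class I (-0.28 to 0.38), and no direction is read from them. Those of early maturation (0.16 to 0.83), late maturation (-1.04 to -0.34) and NF-kB response (0.22 to 1.02) kept their sign.

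Of the granule genes, 1 of 11 was at least 2-fold higher at 24 months (Gzmc) and 0 were lower, with a median log2 ratio of 0.16. Gzma was at 3323 CPM at 24 months and 6329 CPM at 3 months, a log2 ratio of -0.93 (-1.07 to -0.79). Gzmb was at 1262 and 1438 CPM (-0.19, -0.44 to 0.06) and Prf1 at 446 and 621 CPM (-0.48, -0.89 to -0.07). Within Gzma-positive cells the log2 ratio was 0.13 for Gzmb (-0.21 to 0.47) and 0.25 for Prf1 (-0.20 to 0.69), so Prf1 was not lower there. Fasl, the death ligand, was at 306 and 327 CPM, and Serpinb9, which shields the killer cell from granzyme B, at 608 and 542 CPM. Unc13d and Rab27a, which dock and prime granules, had log2 ratios of -0.93 (-2.54 to 0.56) and -0.74 (-2.26 to 0.71) on at most 11 UMIs in a library.

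Of activating receptors and their adaptors 0 of 12 were at least 2-fold higher and 1 lower (Cd247), with a median log2 ratio of 0.16. Klrk1 (NKG2D), a receptor for stress ligands, was at 441 CPM at 24 months and 508 CPM at 3 months. Tyrobp had a log2 ratio of 0.36 (0.15 to 0.56), with 0.35 (0.08 to 0.62) in Gzma-positive and 1.29 (0.88 to 1.72) in Gzma-negative cells. Cd247 (CD3 zeta), the adaptor of NKp46 and CD16, was at 60.3 and 124 CPM, a log2 ratio of -1.04 (-2.15 to 0.01). Fcgr3, the CD16 gene, was at 51.1 and 22.6 CPM (1.18, -0.58 to 3.28) and Klrc2 at 97.5 and 73.3 CPM (0.41, -0.65 to 1.53), both on few UMIs.

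Of the Ly49 receptors, most of which are inhibitory mouse sensors of MHC class I, 0 of 6 measured genes passed 2-fold. The log2 ratio was below 0 for 5 of them, but for 3 of 6 once the leading cell of each library was left out, so no direction is given for the list (median -0.49). Klra7 was at 102 and 181 CPM (-0.82, -1.68 to 0.01), Klra3 at 135 and 237 CPM (-0.82, -1.55 to -0.10), Klra8, an activating member, at 158 and 226 CPM (-0.52, -1.22 to 0.18) and Klra9 at 214 and 293 CPM (-0.46, -1.06 to 0.14). A single cell held 52.4% of the Klra3 UMIs at 3 months, and without the leading cells its log2 ratio was 0.10. Klra4 was at 214 and 181 CPM (0.24, -0.44 to 0.94). Within Gzma-positive cells the log2 ratio was 0.08 for Klra8 (-0.71 to 0.84) and -0.40 for Klra3 (-1.29 to 0.44). The Klra genes are close copies, so the assignment of reads among them is uncertain. Of the other inhibitory receptors 0 of 7 passed 2-fold either way. Klrc1 (NKG2A) was at 297 and 192 CPM (0.63, 0.01 to 1.28), Klri2 at 88.2 and 164 CPM (-0.89, -1.81 to -0.01), Klrg1 at 92.8 and 130 CPM (-0.48, -1.42 to 0.45) and the exhaustion-linked receptor Lag3 at 51.1 and 16.9 CPM (1.59, -0.33 to 4.07).

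Genes of late maturation were mostly lower at 24 months and genes of early maturation mostly higher. Among genes of late maturation 2 of 8 were at least 2-fold lower and 0 higher (median -0.48). S1pr5 was at 32.5 and 95.9 CPM (-1.56, -3.07 to -0.22), Zeb2, a repressor that drives terminal maturation, at 88.2 and 192 CPM (-1.12, -2.01 to -0.27), Spn (CD43) at 107 and 197 CPM (-0.89, -1.71 to -0.09) and Prdm1 (Blimp-1) had 2 UMIs at 24 months and 8 at 3 months. Within Gzma-positive cells Zeb2 had a log2 ratio of -0.24 (-1.21 to 0.68) and S1pr5 of -0.56 (-2.07 to 0.78). Among genes of early maturation 2 of 9 were at least 2-fold higher and 0 lower (median 0.58). Cd7 was at 1286 and 508 CPM (1.34, 0.99 to 1.70), in 70.3% and 51.4% of NK cells. Its log2 ratio was under 2-fold in some alternatives, at 0.86 with no limit on C1q or RPE UMIs, 0.72 without cells holding a T cell receptor constant UMI and 0.42 with cells thinned to 1000 UMIs before the rule. Il7r, the IL-7 receptor of ILCs and naive lymphocytes, was at 88.2 and 11.3 CPM (2.97, 0.92 to 6.11) on 19 and 2 UMIs. Thy1 and Cd27 had log2 ratios of 0.79 (-0.03 to 1.66) and 0.72 (-0.51 to 2.06). Of genes of ILC1 and tissue residence 1 of 11 was at least 2-fold higher (Il7r) and 0 lower (median 0.17), with Tmem176b at 557 and 316 CPM (0.82, 0.35 to 1.30), Inpp4b at 292 and 175 CPM (0.74, 0.10 to 1.41) and Cxcr6 at 148 and 276 CPM (-0.90, -1.59 to -0.22).

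Of the transcription factors, 2 of 13 were at least 2-fold lower (Klf2 and Zeb2) and 0 higher. Klf2, which holds lymphocytes in a quiescent, recirculating state, was at 441 CPM at 24 months and 1348 CPM at 3 months (-1.61, -1.97 to -1.26). The difference was also present within Gzma-positive cells, at 644 and 1911 CPM (-1.57, -2.09 to -1.08), and in Gzma-negative cells it was at 356 and 537 CPM (-0.59, -1.22 to 0.04). Klf2 was likewise at 601 and 1325 CPM in CD8 T cells of the same libraries. Eomes was at 153 and 282 CPM (-0.88, -1.56 to -0.22), Tbx21 at 255 and 327 CPM (-0.36, -0.92 to 0.20), and Lef1 had 4 and 8 UMIs. Itga4, the alpha-4 integrin that binds VCAM-1 on vessels, was lower too: it was at 116 and 288 CPM (-1.31, -2.06 to -0.59) over all NK cells and at 173 and 487 CPM (-1.50, -2.58 to -0.54) in Gzma-positive cells. In Gzma-negative cells it was at 92.2 CPM at 24 months and had 0 UMIs at 3 months, where 3 UMIs would be 41.3 CPM, and in CD8 T cells it was at 212 and 357 CPM.

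**Figure D4:**
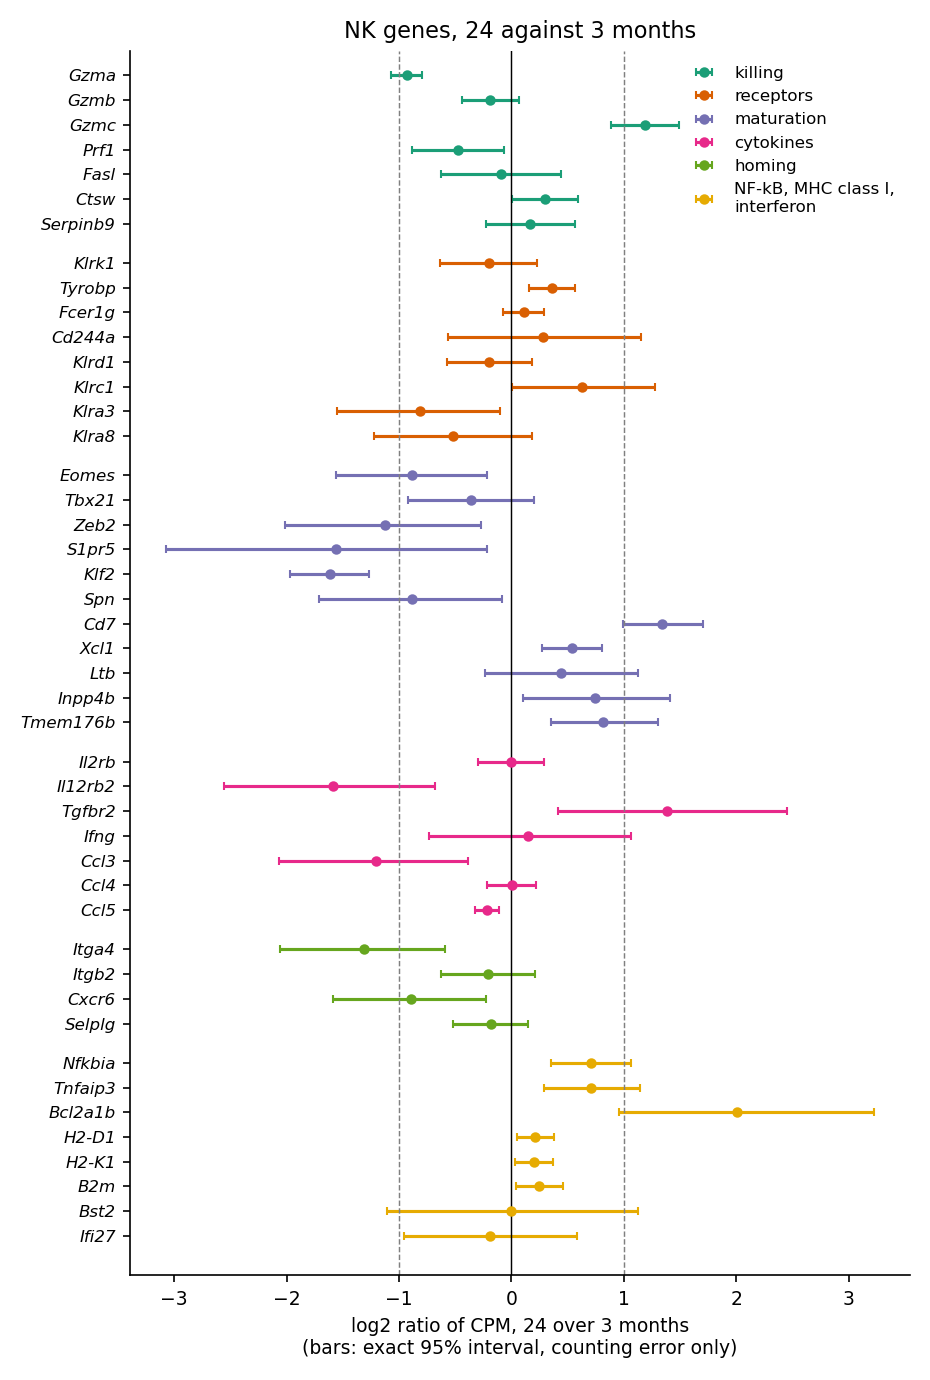
Log2 ratio of CPM in NK cells, 24 over 3 months (x axis), for genes grouped by role, with points for the ratio, bars for the exact 95% interval of counting error and dashed lines at 2-fold. Gzmc, Cd7, Tgfbr2 and Bcl2a1b lay beyond 2-fold on the right and Zeb2, S1pr5, Klf2, Il12rb2, Ccl3 and Itga4 on the left, while Il2rb, Ccl4 and Bst2 lay at 0.

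Among receptors for cytokines 2 of 12 were at least 2-fold higher (Il7r and Tgfbr2) and 1 lower (Il12rb2). Il12rb2, the inducible chain of the receptor for IL-12, was at 69.6 and 209 CPM (-1.58, -2.56 to -0.68), with a UMI in 15.6% and 54.3% of NK cells. Tgfbr2, the TGF-beta receptor, was at 176 and 67.7 CPM (1.38, 0.41 to 2.45), and in Gzma-negative cells at 198 and 55.1 CPM (1.84, 0.34 to 3.81). In CD8 T cells Tgfbr2 was at 120 and 148 CPM. Il18r1 was at 51.1 and 84.6 CPM on 11 and 15 UMIs, and Il2rb and Ifngr1 lay at -0.01 and 0.00. Among homing receptors 2 of 15 were at least 2-fold lower (S1pr5 and Itga4) and 0 higher, and Ccr2, which guides cells to inflamed tissue, was at 107 and 169 CPM (-0.66, -1.51 to 0.17).

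Of the cytokine and chemokine genes, Ccl5, Ccl4 and Xcl1 were above 1000 CPM at both ages. Ccl5 was at 7004 CPM at 24 months and 8151 CPM at 3 months (-0.22, -0.32 to -0.11), but within Gzma-positive cells it was at 18724 and 12619 CPM (0.57, 0.46 to 0.68). The 2 deepest Gzma-positive cells at 3 months held 84 and 12 Ccl5 UMIs among 16245 and 8067 UMIs. The Ccl5 ratio without them was not computed. Ccl4 was at 1815 and 1811 CPM (0.00, -0.21 to 0.22) and Ccl3 at 92.8 and 214 CPM (-1.21, -2.07 to -0.39), both chemokines that attract leukocytes. Ccl4 was the more abundant in Gzma-negative cells, at 770 CPM in positive and 2253 CPM in negative cells at 24 months and at 1251 and 2617 CPM at 3 months. Xcl1 was at 1513 and 1044 CPM (0.54, 0.27 to 0.80), and at 396 and 43.6 CPM in CD8 T cells. Ifng was at 125 and 113 CPM (0.15, -0.74 to 1.06), Flt3l had a log2 ratio of 0.53 (-0.83 to 1.99) and Ltb of 0.44 (-0.23 to 1.13). Of the 8 measured genes of this list, 2 were at least 2-fold lower and 0 higher. These were Ccl3 and Areg, an epidermal growth factor receptor ligand whose 18 UMIs at 3 months all lay in 1 cell.

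NF-kB response genes were higher at 24 months in 6 of 9 measured cases, 3 of them by at least 2-fold, with a median log2 ratio of 0.70 against -0.05 over all genes. The list holds the NF-kB subunit genes Rel, Relb, Nfkb1 and Nfkb2, beside feedback inhibitors, survival genes and the adhesion gene Icam1. Nfkbia (IkB-alpha) was at 947 and 581 CPM (0.70, 0.36 to 1.06), and within Gzma-positive cells at 1115 and 669 CPM (0.74, 0.24 to 1.24) and Gzma-negative cells at 876 and 455 CPM (0.95, 0.39 to 1.54). Tnfaip3 (A20) was at 654 and 401 CPM (0.71, 0.29 to 1.14). Bcl2a1b, an anti-apoptotic BCL-2 relative with near-identical copies, was at 204 and 50.8 CPM (2.01, 0.95 to 3.23). Rel was at 83.5 and 28.2 CPM (1.57, 0.08 to 3.35), Relb at 78.9 and 28.2 CPM (1.48, -0.01 to 3.28) and Birc3 at 78.9 and 11.3 CPM (2.81, 0.73 to 5.96; 19 UMIs in all, so outside the count), whereas Nfkb1 was at 107 and 164 CPM (-0.62, -1.47 to 0.22). In CD8 T cells Nfkbia was at 717 and 436 CPM and Tnfaip3 at 703 and 375 CPM. Immediate early genes, which the dissociation of tissue can induce, had a median log2 ratio of -0.22, which was 0.48 without cells holding a T cell receptor constant UMI, so no direction is given for the list, with 2 of 15 at least 2-fold lower: Fos at 1300 and 2956 CPM (-1.19, -1.40 to -0.97) and the chaperone gene Dnajb1 at 223 and 513 CPM (-1.20, -1.74 to -0.68; 40.7% of its UMIs at 3 months in 1 cell). Fos turned to 0.999 on the log2 scale when cells with a UMI of a T cell receptor constant gene were left out, so no direction is given for it. Jun was at 78.5 and 955 CPM in Gzma-positive cells (-3.60, -5.26 to -2.33) and at 613 and 400 CPM in Gzma-negative cells (0.62, 0.00 to 1.27), and Atf3 had a log2 ratio of -0.73 over all NK cells (-1.46 to -0.02).

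Few interferon-stimulated genes and no MHC class I gene passed 2-fold between the ages. Bst2, a membrane protein that tethers viruses, was at 78.9 CPM at 24 months and 79.0 CPM at 3 months (0.00, -1.11 to 1.13), and Ifi27 at 149 and 169 CPM (-0.19, -0.95 to 0.58). With no limit on C1q or RPE UMIs, which added 6 deep cells at 24 months, the log2 ratio was 0.77 for Bst2 and 0.85 for Ifi27. In RPE cells of the same libraries Bst2 was at 298 and 139 CPM and Ifi27 at 439 and 212 CPM, so NK cells held less of each than RPE cells did. Of 14 measured interferon-stimulated genes 0 were at least 2-fold higher and 1 lower (Ly6a, at 102 and 226 CPM, -1.14, -1.96 to -0.36), with a median log2 ratio of 0.32. Ly6a turned to 0.54 when cells with a T cell receptor constant UMI were left out. Gbp7 had a log2 ratio of 0.91 (-0.45 to 2.43) and Slfn2 of -0.65 (-1.48 to 0.17). Of 13 MHC class I and antigen processing genes 12 were above 0 and 0 passed 2-fold, with a median of 0.16. H2-D1 was at 3486 and 3007 CPM (0.21, 0.05 to 0.38), H2-K1 at 3147 and 2736 CPM and B2m at 2219 and 1867 CPM. The ratios were larger in Gzma-positive cells, at 0.64 for H2-K1 (0.38 to 0.90) and 0.64 for B2m (0.31 to 0.96), than in Gzma-negative cells, at -0.14 (-0.38 to 0.09) and -0.12 (-0.39 to 0.16); the difference between the sets was not tested. The largest of the list were H2-Q4 (0.55, 0.03 to 1.08), Psmb9 (0.47, -0.47 to 1.46), H2-Q7 (0.41, -0.02 to 0.84) and Tapbp (-0.28, -0.99 to 0.43).

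Of survival and death genes 0 of 6 passed 2-fold. Cdkn1a (p21), a cell cycle inhibitor also used as a senescence marker, was at 265 and 141 CPM (0.91, 0.21 to 1.65), with a UMI in 32.8% and 28.6% of NK cells, and 1 cell held 44.0% of its UMIs at 3 months. Mcl1, on which NK cell survival depends, was at 255 and 378 CPM (-0.57, -1.11 to -0.03), Bcl2l11 (BIM) at 172 and 130 CPM (0.40, -0.38 to 1.22), and Bbc3 (PUMA) had 5 and 10 UMIs. Cell cycle genes were at least 2-fold lower at 24 months in 6 of 9 cases, with a median of -1.90 where Mki67 and Birc5, which had 0 UMIs at 24 months, entered at the bound given by 3 UMIs, but this rested on few cells. At least 3 of Mki67, Top2a, Birc5, Cdk1, Tyms, Rrm2 and Pclaf were detected in 0 of 64 NK cells at 24 months and 2 of 35 at 3 months, and 68.8% of the 32 Mki67 UMIs lay in 1 cell. A count of 0 in 64 cells allows a share of cells with such detection of up to 4.69% and does not limit the share of dividing cells. Hmgb2, a chromatin protein of dividing cells, was at 181 and 677 CPM (-1.90, -2.46 to -1.37) and at -1.003 on the log2 scale without the leading cells. Stmn1 (-2.90), Mcm6 (-1.81) and Mcm7 (-1.77) were lower as well, and 1 cell held 73.5% of the Stmn1 UMIs at 3 months.

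Many of the highest ratios were in genes whose level at 24 months was higher in RPE cells than in NK cells. Levels in stromal cells were not measured. The 12 genes with the highest ratios were Cd74, Sult1c1, Nfkbid, Lyz2, Il7r, Cltrn, Serpine3, Slc6a13, Marcksl1, Ermn, Basp1 and Acta2. The invariant chain gene Cd74, at 1495 and 39.5 CPM (5.24, 4.18 to 6.57), had 93.8% of its 322 UMIs at 24 months in 1 cell. Acta2, a smooth muscle actin, had 82.9% of its UMIs at 24 months in 1 cell, and its log2 ratio of 2.38 was 0.42 without the leading cells. Lyz2 (lysozyme of macrophages) was at 724 and 90.3 CPM (3.00, 2.26 to 3.85), with a UMI in 82.8% and 34.3% of NK cells. It was at 707 and 183 CPM in CD8 T cells and 414 and 85.4 CPM in RPE cells, so the difference was not particular to NK cells. The genes Sult1c1, Cltrn, Slc6a13, Ermn, Basp1 and Serpine3 were at 92.8 to 153 CPM at 24 months and at most 28.2 CPM at 3 months, with levels in RPE cells between 316 CPM (Sult1c1) and 1056 CPM (Cltrn) at 24 months. Sult1c1 turned to -0.55 on the log2 scale when cells were thinned to 1000 UMIs before the rule. Serpine3 had 22 UMIs at 24 months and 0 at 3 months, where 3 UMIs would be 16.9 CPM, a log2 ratio of at least 2.59. Nfkbid, an NF-kB regulator, was at 102 and 11.3 CPM (3.18, 1.15 to 6.31) and Marcksl1 at 97.5 and 16.9 CPM (2.53, 0.78 to 4.91). Nfkbid was at 4.14 and 1.46 CPM in RPE cells and at 77.3 and 26.1 CPM in CD8 T cells, and Marcksl1 at 29.4 and 33.6 CPM and 83.9 and 95.9 CPM.

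Marker sums of other types differed between the libraries in NK cells. The 10 RPE markers summed to 12346 CPM at 24 months and 4603 CPM at 3 months, near the 12223 and 4314 CPM of CD8 T cells. Macrophage markers summed to 975 and 203 CPM, melanocyte markers to 74.3 and 767 CPM and fibroblast markers to 1806 and 4806 CPM, and their part in the results was not tested. The 12 genes with the lowest ratios included the pigment genes Pmel (-4.37), Mlana (-3.45) and Dct (-2.50), with Pmel at 13.9 and 288 CPM in NK cells, 9.95 and 192 CPM in CD8 T cells and 20.7 and 152 CPM in RPE cells. They also included the stromal genes Col1a1 (-2.87), Plpp3 (-2.87), Ptgis (-2.80) and Akap12 (-3.57), the chaperone gene Hspb1 (-2.62), the cell cycle and nuclear genes Stmn1, Cenpa (-2.60) and Lmnb1 (-2.52), and the cation channel gene Trpv2 (-2.87). At least 1% of UMIs came from fibroblast, mural, melanocyte, endothelial, Schwann or MHC class II markers in 5 of 64 NK cells at 24 months and 4 of 35 at 3 months. Without them Col1a1 turned to 0.48, Cd74 stood at 0.99 and the Gzma-positive shares were 40.7% and 67.7%. Col1a1 and Hspb1 also turned to 1.16 and 0.58 without cells holding a T cell receptor constant UMI, and Lmnb1 to 1.04 with cells thinned before the rule.

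To name differences in genes that NK cells held above other cells, a list was also drawn after the values had been seen. It came from 361 genes whose CPM, averaged over both libraries, was at least 5 times that of all filtered cells. Genes with 1 cell holding at least 50% of the UMIs of a library were left out. A gene could pass through the library where it was high alone, so this list is description only. At 24 months Hist1h1e was at 37.1 CPM in NK cells and 20.5 CPM in all filtered cells, and Lmnb1 at 32.5 and 17.5 CPM. At 3 months Osgin1 was at 33.8 and 11.5 CPM. The 12 highest ratios at 24 months were Osgin1 (1.94), Rnf125 (1.47), Cd7 (1.34), Jakmip1 (1.30), Icos (1.19), St8sia4 (1.19), Ramp1 (1.13), Tinf2 (1.13), Vav3 (1.13), Itgax (1.09), Gpr132 (0.97) and Evl (0.95). Itgax (CD11c), an integrin of dendritic cells that activated NK cells also carry, was at 227 and 107 CPM (0.29 to 1.93), and Icos, a costimulatory receptor, at 116 and 50.8 CPM (0.05 to 2.48). The lowest included Trpv2, Cenpa, Lmnb1, the linker histone gene Hist1h1e (-2.37, -3.69 to -1.23; a UMI in 12.5% and 48.6% of NK cells), Il12rb2 and S1pr5. Cd7 was the most abundant of the higher genes and stood out from CD8 T cells, in which it was at 99.5 and 52.3 CPM.

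Set beside CD8 T cells of their own library, NK cells held more Gzma, Gzmb, Gzmc and Prf1 at both ages, while Gzmk, a granzyme of memory CD8 T cells, ran the other way. Of 16 granule genes with at least 20 UMIs over both cell types, 9 had the higher CPM in NK cells in both libraries. Another 2 had the lower (Gzmk and Lamp1), and 5 differed in direction between the libraries. The share of all genes that were higher in NK cells in both libraries was not computed, so this count describes the list alone. Gzmk had 0 UMIs in NK cells of both libraries and was at 380 CPM in CD8 T cells at 24 months and 235 CPM at 3 months. Gzma was at 3323 CPM in NK cells and 107 CPM in CD8 T cells at 24 months, and at 6329 and 880 CPM at 3 months. Gzmb was at 1262 and 121 CPM at 24 months and 1438 and 166 CPM at 3 months, and Prf1 at 446 and 34.5 CPM at 24 months and 621 and 26.1 CPM at 3 months. Irf8 was at 659 CPM in NK cells and 16.6 CPM in CD8 T cells at 24 months, and at 767 and 26.1 CPM at 3 months. Ccl5 was shared, at 7004 CPM in NK cells and 5353 CPM in CD8 T cells at 24 months and 8151 and 9326 CPM at 3 months. Tigit was higher in the T cells at 24 months, at 172 CPM in NK cells and 293 CPM in CD8 T cells. The 3-month values of CD8 T cells rest on 23 cells and 114734 UMIs.

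**Figure D5:**
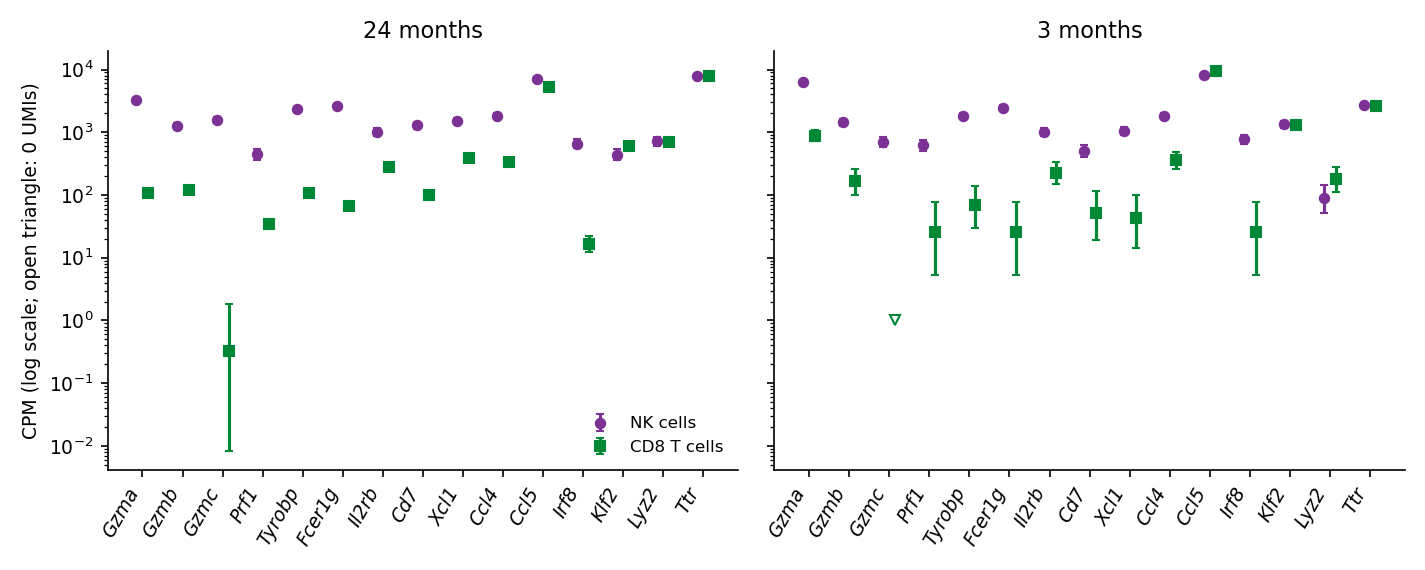
CPM on a log scale (y axis) of 15 genes in NK cells (purple circles) and CD8 T cells (green squares) at 24 months (left) and 3 months (right), with exact 95% Poisson intervals for counting error and an open triangle where no UMI was seen. Gzma, Gzmb, Gzmc, Prf1, Irf8, Tyrobp and Fcer1g were higher in NK cells in both libraries, while Ccl5 and the RPE gene Ttr lay close in both.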

How the data were processed

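Single-cell RNA sequencing was analysed for 2 libraries, 1 at 24 months and 1 at 3 months. Per the labels and the study's methods, the authors processed 10x 5′ v2 reads with Cell Ranger 6.0.1 on mm10 and deposited unnormalized UMI counts for 32285 genes, with 17835 and 16463 barcodes and 93559718 and 93163820 UMIs in the libraries of 24 and 3 months. The bulk RNA sequencing tables of the series were not used here, and 0 columns were left unmapped.

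Barcodes were dropped for fewer than 200 genes, over 10% of UMIs from mitochondrial genes, or any UMI of a hemoglobin gene, which left 30865 of the deposited barcodes. The first 2 limits are the study's. Its text words the hemoglobin step as removing cells whose sum is 0, read here as the reverse, and its stated cell number is lower, so the populations are not the same. NK cells, CD8 T cells, B cells (at least 2 UMIs of Cd79a and Ms4a1) and RPE cells (at least 4% of UMIs from the RPE genes) were gated on UMIs. Doublets were scored with Scrublet in scanpy 1.11.5 and kept, and 5 NK cells at 24 months and 4 at 3 months were over a score of 0.286. This was the automatic threshold of the 24-month library, used for both because the automatic threshold at 3 months (0.654) marked 0 cells. UMIs were summed per class, and ratios were given conditional exact intervals, shares Clopper-Pearson intervals and levels Poisson intervals at 95% (Python 3.11.15, numpy 2.4.6, scipy 1.17.1, pandas 2.3.3, matplotlib 3.10.9). UMIs of 1 cell are not independent samples of an age, so intervals cover counting error only. A count of 0 was bounded by 3 counts. Genes needed 20 UMIs over both libraries. The calculations were tested on simulated data.

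The genes named were the 12 largest ratios each way among genes outside the rule with a UMI in at least 10% of NK cells, the 4 largest in each list, marker genes, Bst2 and Ifi27, and the 5 genes most like Gzma. Other named genes, the 5 most opposite to Gzma, the Gzma split and the list of NK-enriched genes were chosen after values were seen. The members and lists were chosen with earlier results of these data known. Alternatives covered the filter, doublets, the rule, thinning, the gene minimum, the fold, the scaling and the leading cells.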

Additional observations from a re-analysis of the deposited data

How the results depend on the processing

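No paired analysis was possible because each age had 1 library and no test was run, and no replicate could be left out for the same reason. The log2 ratio of NK shares of filtered cells was above 0 in 9 alternatives (0.59 to 1.49) but was -1.05 of cells with a Ptprc UMI and -3.57 per T cell. Gzma-positive cells had a log2 ratio of shares of filtered cells between -0.28 and 0.78 and Gzma-negative cells between 1.83 and 2.32 over the alternatives run. With denominators added after seeing the data, the ratios for positive and negative cells were -1.83 and -0.11 of cells with a Ptprc UMI and -4.44 and -2.58 per T cell. The share with Gzma was 35.7% to 42.1% at 24 months and 66.7% to 76.9% at 3 months.

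Genes at least 2-fold higher and lower at 24 months numbered 377 and 366 with no limit on C1q or RPE UMIs, 35 and 20 with cells thinned to 1000 UMIs before the rule, 37 and 41 with at least 50 UMIs per gene, 2648 and 2846 with at least 1 UMI per gene, and 451 and 559 at 1.5-fold. With the leading cell of each gene left out, an alternative added after seeing the data, 259 were higher and 178 lower. Without cells holding a T cell receptor constant UMI, which left 49 and 18 NK cells, the log2 ratio was 1.16 for Col1a1, 0.58 for Hspb1, 0.999 for Fos and 0.54 for Ly6a. Thinning gave -0.55 for Sult1c1 and 1.04 for Lmnb1, and leaving out cells with RNA of other types, also added later, gave 0.48 for Col1a1. The causes were not tested. With 99 NK cells, genes near 20 UMIs had intervals wider than 2-fold.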
